A study of Mus musculus with 12 samples.

Results

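Loss of Ing1 was examined in fibroblasts already labelled as lacking Gadd45a, by setting the 3 libraries titled DKO against the 3 titled Gadd45a-KO, 6 of the 12 libraries in the study. Poly(A) RNA was sequenced from mouse embryonic fibroblasts (MEFs), primary connective-tissue cells, on day 6 of differentiation into adipocytes. The DKO embryos were labelled Gadd45a-/-;Ing1-/- and the Gadd45a-KO embryos Gadd45a-/-, so by label both carried a Gadd45a deletion, although the Gadd45a reads, given below, go against that label. The Ing1-KO (Ing1-/-) and wild-type (WT) libraries, 3 each, gave the same comparison on the other background. All embryos were male, were taken on embryonic day E15.5, had a C57BL/6N background and came from crosses of the 2 mutant lines. By label, both deletions were present in the whole embryo, and the cells had been cultured for 4 passages before the hormones were added. The induction mixture held insulin (10 µg/ml), rosiglitazone (2 µM), the glucocorticoid dexamethasone (1 µM) and isobutylmethylxanthine (0.5 mM), and was replaced after 48 h by medium with insulin. Nothing in the labels ties replicates to separate embryos or cultures; p-values therefore reflect the spread of these libraries only, which may be technical.

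Ing1 is a chromatin protein whose PHD finger binds trimethylated histone H3, and it is a subunit of the SIN3 histone deacetylase complex. Gadd45a responds to stress and has been tied to DNA repair and to active removal of DNA methylation. When fibroblasts become fat cells, the transcription factors Cebpb and Cebpd are induced first. They switch on Pparg and Cebpa, which in turn activate the genes of lipid uptake, lipid synthesis and the lipid droplet; rosiglitazone is a ligand of the Pparg protein.

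The shallowest library, DKO replicate 1, had 42891627 gene reads and the deepest, Gadd45a-KO replicate 1, had 52860419. The median standard deviation of a gene over the 3 libraries was 0.0896 log2 CPM (read counts scaled by library size) in DKO and 0.103 in Gadd45a-KO, and every pair of replicates differed by more than sampling noise. All 13 listed fibroblast markers were detected. Their summed level was 27846, 27967 and 31633 CPM in DKO, against 31921, 33450 and 31754 CPM in Gadd45a-KO. Col1a1 and Col3a1, at up to 16700 and 14400 CPM in a library, made up most of that sum. Log2 fold changes of DKO over Gadd45a-KO were negative in 11 of the 13, with a median of -0.27. By edgeR 0 of them had an adjusted p under 0.05. Macrophage and leukocyte markers were also present, all 30 of 30, and Gadd45a-KO replicate 1 stood apart in them. Their summed level was 10317, 9763.5 and 9724.8 CPM in DKO, against 2775.8, 7867.8 and 7318.4 CPM in Gadd45a-KO. Lyz2 alone, at up to 4920 CPM in a library, weighs heavily in that sum. In bulk RNA, fewer cells of a type and less RNA per cell cannot be told apart.

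Ing1 followed its label. It stood at 0.915, 1.15 and 0.68 CPM in DKO, against 46.3, 47.3 and 44.4 CPM in Gadd45a-KO, and the residual 124 reads in DKO compare with 6887 in Gadd45a-KO. The log2 fold change was -5.66 ± 0.16 (SE, adjusted p = 1.69e-08; edgeR's quasi-likelihood test with Benjamini-Hochberg adjustment, as throughout). Gadd45a did not follow its label. In DKO it had 140, 142 and 138 CPM, in Gadd45a-KO 144, 141 and 144 CPM, in Ing1-KO 13.4, 15.0 and 18.4 CPM and in WT 14.4, 17.9 and 15.1 CPM. Which exons the reads came from cannot be seen in a sum per gene, and Gadd45a overlaps a non-coding gene on the other strand, so DKO and Gadd45a-KO below mean the libraries labelled so, and each direction rests on those labels. Between DKO and Gadd45a-KO the log2 fold change of Gadd45a was -0.03 ± 0.10 (adjusted p = 0.896), and neither of its paralogues Gadd45b (0.01 ± 0.08) and Gadd45g (0.12 ± 0.11) passed. Of the other 4 ING family genes none passed either; Ing2, the nearest relative of Ing1 and a subunit of the same complex, had 12.3, 12.2 and 12.9 CPM in DKO, against 10.4, 11 and 10.2 CPM in Gadd45a-KO (log2 fold change 0.24 ± 0.06, adjusted p = 0.0655). In the SIN3 complex list Ing1 itself was the single member called of 19 tested.

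Of 16163 genes tested, 203 (1.26%) were called at an adjusted p under 0.05, 107 of them higher in DKO (0.662%) and 96 lower (0.594%). The changes were mostly small: the median absolute log2 fold change of the calls was 0.498, and 14 higher and 21 lower calls reached a fold of 2. Library values did not overlap for any of the 203, but over all genes DKO lay wholly above Gadd45a-KO for 1999 (12.4%) and wholly below for 2196 (13.6%). The share of calls that were higher was 52.7%. It was 41.9% with upper-quartile factors, 75.2% without Gadd45a-KO replicate 1 and 19.1% when only the 6 libraries compared were fitted, which called 81 higher and 343 lower. An unadjusted p below 0.05 was found for 3236 genes (20%), DESeq2 called 1253 (7.75%), and fitting only the 6 libraries called 424 of 15559 (2.73%; 2.2% lower); counts of these kinds in the gene lists are to be read against those shares. Single libraries moved the number of calls by more than 1.5 times in every case. It was 6, 17 and 494 without DKO replicates 1, 2 and 3, and 379, 68 and 44 without Gadd45a-KO replicates 1, 2 and 3. Leaving out Ing1-KO replicates 1, 2 and 3 gave 501, 97 and 590, and leaving out WT replicates 1, 2 and 3 gave 99, 90 and 74.

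**Figure D1:**
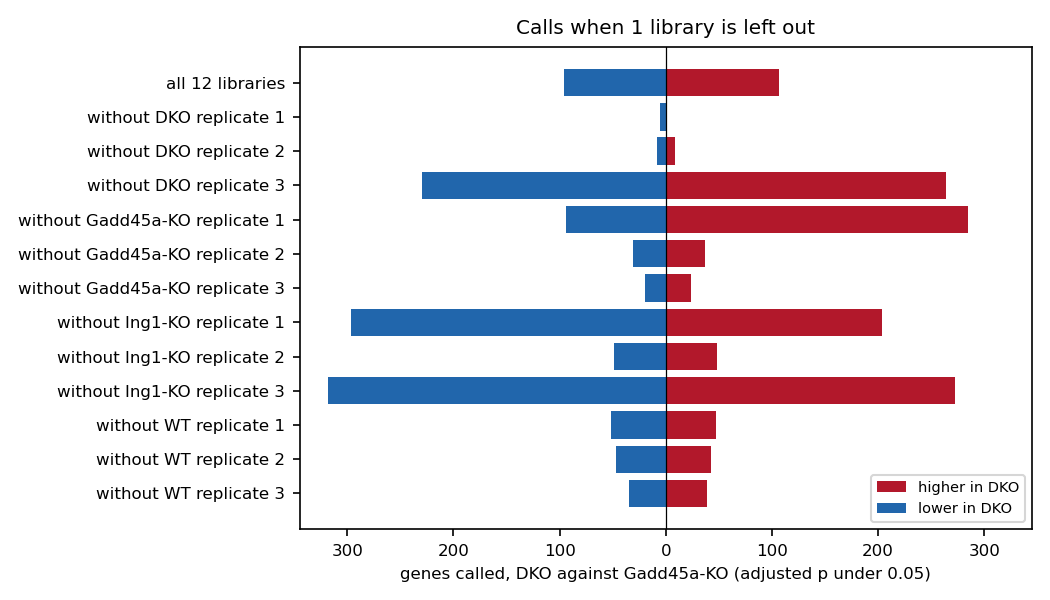
Number of genes called in DKO against Gadd45a-KO (x axis) with all 12 libraries and with 1 library left out of the shared fit (rows); red bars to the right are genes higher in DKO, blue bars to the left genes lower in DKO. The total is smallest without DKO replicate 1, with 1 higher and 5 lower, and largest without Ing1-KO replicate 3, with 272 higher and 318 lower. The longest red bar, 285 higher, is that without Gadd45a-KO replicate 1.

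6 of the 203 calls passed in all 12 of these fits: Ing1, Plxna4, Olfm1, Hoxd3, Ccl2 and Mab21l2, the last of them higher in DKO and the others lower. Plxna4, a plexin receptor for semaphorins, was the most even of them. It had 30.7, 30.6 and 30.6 CPM in DKO, against 50.2, 49.4 and 48.7 CPM in Gadd45a-KO, with a log2 fold change of -0.69 ± 0.05 (adjusted p = 0.000113). Olfm1, which encodes a secreted olfactomedin-domain protein and was named after its values were seen, had 14.7, 15.7 and 17.2 CPM in DKO, against 26.2, 25.0 and 23.9 CPM in Gadd45a-KO (log2 fold change -0.66 ± 0.07, adjusted p = 0.0042). Hoxd3, a homeobox factor of body-axis patterning, was scarce, at 3.07, 2.74 and 2.72 CPM in DKO and 5.84, 5.09 and 5.81 CPM in Gadd45a-KO (log2 fold change -0.97 ± 0.10, adjusted p = 0.00523). Ccl2, a chemokine that attracts monocytes, had 60.9, 70.9 and 74.4 CPM in DKO, against 106, 98.5 and 99.7 CPM in Gadd45a-KO (log2 fold change -0.56 ± 0.07, adjusted p = 0.0104). Mab21l2, a gene of eye and body-wall development, had 3.66, 3.11 and 3.94 CPM in DKO, against 1.13, 0.851 and 0.849 CPM in Gadd45a-KO (log2 fold change 1.91 ± 0.21, adjusted p = 0.00679). A further 8 calls passed in 11 of the 12 fits, among them Slc40a1, Spaca1, Shank2 and Car9, each described below.

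Slc40a1 encodes ferroportin, the iron exporter of macrophages and other cells. It had 72.9, 74.0 and 68.2 CPM in DKO, against 30.5, 30.6 and 41.2 CPM in Gadd45a-KO, with a fitted change of 1.07 ± 0.13 on the log2 scale (adjusted p = 0.0104). Car9, a carbonic anhydrase of the cell surface induced by low oxygen, had 31.3, 27.0 and 34.5 CPM in DKO, against 10.3, 14.2 and 14.2 CPM in Gadd45a-KO (log2 fold change 1.27 ± 0.16, adjusted p = 0.0106). For both genes the lowest DKO library lay well above the highest Gadd45a-KO library. Slc16a7, a transporter of lactate and pyruvate, rose by less, with 9.39, 7.64 and 8.0 CPM in DKO and 4.71, 5.45 and 5.73 CPM in Gadd45a-KO (log2 fold change 0.66 ± 0.11, adjusted p = 0.0231).

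Col10a1, the collagen of hypertrophic cartilage, showed the largest rise among calls at a mean of at least 5 CPM, with 13.9, 16.2 and 6.04 CPM in DKO, against 3.11, 1.66 and 2.12 CPM in Gadd45a-KO (log2 fold change 2.38 ± 0.34, adjusted p = 0.0187). DKO replicate 3 was the lowest of its group in this gene and in Ltbp1, which encodes a protein that tethers latent TGF-beta in the matrix. Ltbp1 had 277, 306 and 226 CPM in DKO, against 186, 150 and 158 CPM in Gadd45a-KO (log2 fold change 0.71 ± 0.13, adjusted p = 0.0363). Plau, the urokinase protease, had 94.7, 107 and 79.6 CPM in DKO and 59.0, 69.0 and 70.5 CPM in Gadd45a-KO (log2 fold change 0.50 ± 0.10, adjusted p = 0.049). Of the lists these genes belong to, cartilage and bone had 1 of 22 tested members called, Col10a1, and the elastic fibre list 1 of 19, Ltbp1. The matrix protease list, which holds Plau, had 1 of 25 called higher and 2 called lower, with a median log2 fold change of -0.04. Acan, the cartilage proteoglycan aggrecan, and Eln, elastin, did not pass. Acan had 18.8, 26.5 and 12.5 CPM in DKO, against 5.31, 2.27 and 4.35 CPM in Gadd45a-KO (log2 fold change 2.27, adjusted p = 0.0549). Eln had 1146, 1241 and 557 CPM in DKO, against 608, 196 and 288 CPM in Gadd45a-KO (log2 fold change 1.43, adjusted p = 0.101); its groups overlap, with DKO replicate 3 below Gadd45a-KO replicate 1.

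Tlr4, the receptor for bacterial lipopolysaccharide, rose in DKO, with 35.2, 31.0 and 30.3 CPM against 16.3, 23.6 and 22.4 CPM in Gadd45a-KO (log2 fold change 0.63 ± 0.12, adjusted p = 0.0366). Rnf128, a membrane-bound ubiquitin ligase, had 120, 125 and 99.9 CPM in DKO, against 55.9, 74.2 and 73.2 CPM in Gadd45a-KO (log2 fold change 0.76 ± 0.12, adjusted p = 0.0239). Tpd52, a protein of vesicle traffic, had 73.6, 73.9 and 70.0 CPM in DKO, against 35.3, 50.2 and 49.3 CPM in Gadd45a-KO (log2 fold change 0.69 ± 0.11, adjusted p = 0.0239). In these 3 genes Gadd45a-KO replicate 1 was the lowest library, as it was for the leukocyte markers. The part of the leukocyte markers in these results was not tested apart from a fit with their mean as covariate, given below. The other rises taken by the naming rule at this level of expression were Cdsn, Rasgrp3, Lmo7 and Sytl2, with log2 fold changes of 0.92, 0.89, 0.76 and 0.67 and adjusted p-values from 0.0366 to 0.0472. Cdsn encodes a protein of skin cell junctions, Rasgrp3 an activator of Ras, Lmo7 a protein of cell junctions and the actin skeleton, and Sytl2 a partner of Rab27 in secretion.

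**Figure D2:**
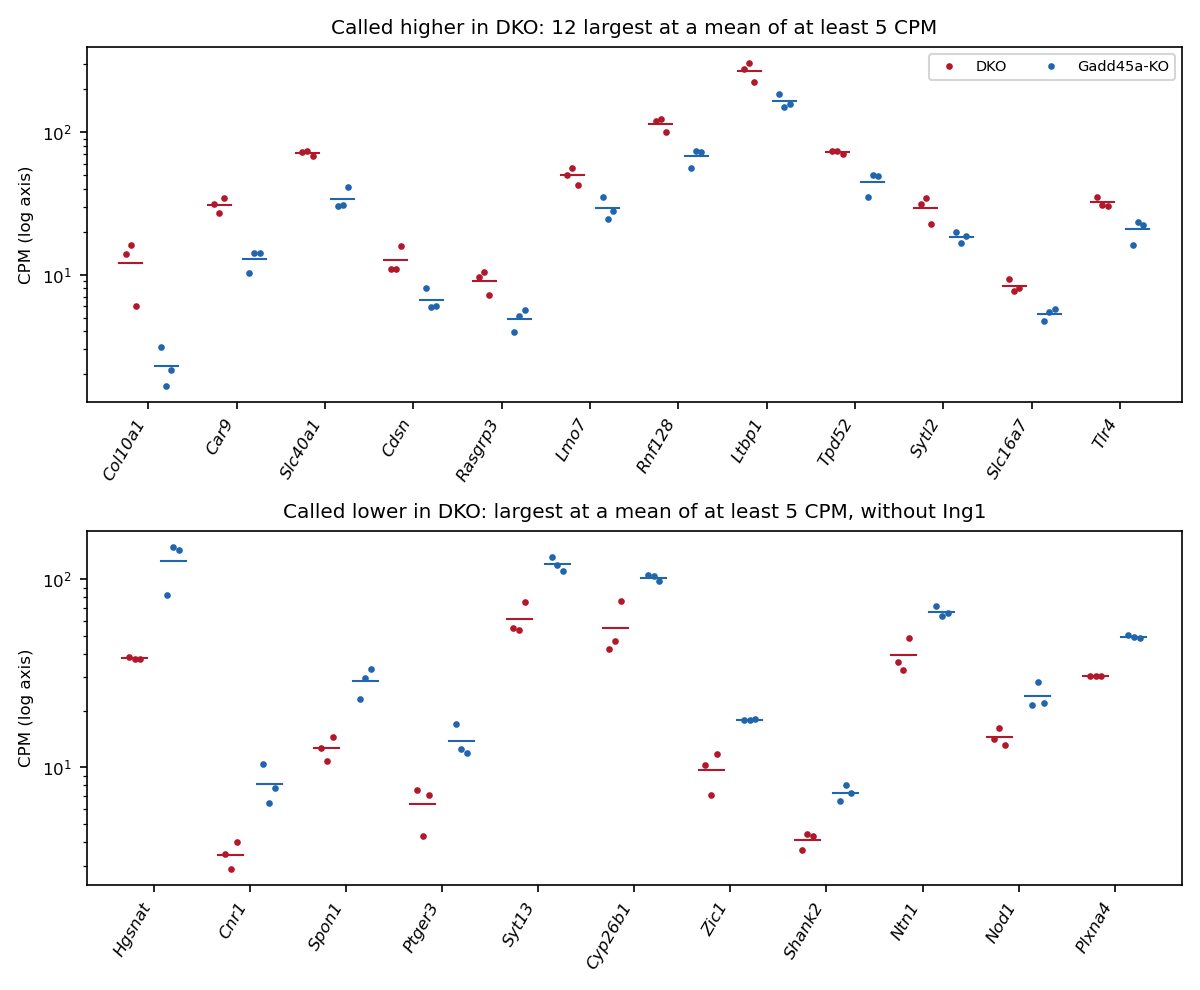
CPM on a log axis of the genes with the largest changes among the calls at a mean of at least 5 CPM, 12 higher in DKO (top) and 11 lower in DKO, Ing1 left out (bottom); points are libraries, lines are means, DKO in red and Gadd45a-KO in blue. The choice of genes required that in each the 3 DKO libraries lie on 1 side of the 3 Gadd45a-KO libraries. Plxna4 lies between 30.6 and 30.7 CPM in DKO and between 48.7 and 50.2 CPM in Gadd45a-KO.

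Hgsnat was the largest fall at this level of expression after Ing1. It encodes the lysosomal acetyltransferase of heparan sulphate breakdown and lies on chromosome 8, as Ing1 does. The level was 38.4, 37.7 and 37.5 CPM in DKO, against 82.3, 149 and 143 CPM in Gadd45a-KO (log2 fold change -1.72 ± 0.26, adjusted p = 0.0217). The Ing1-KO libraries stood at the same level as DKO, at 39.0, 39.9 and 36.5 CPM, whereas WT had 114, 80.3 and 57.2 CPM. The 6 libraries with an Ing1 deletion thus lay between 36.5 and 39.9 CPM, and the 6 without one spread from 57.2 to 149 CPM.

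Cnr1, the cannabinoid receptor, had 3.45, 2.87 and 3.98 CPM in DKO, against 10.4, 6.47 and 7.70 CPM in Gadd45a-KO (log2 fold change -1.25 ± 0.17, adjusted p = 0.0134). Ptger3, a receptor for prostaglandin E2 that inhibits cyclic AMP formation, had 7.60, 4.31 and 7.16 CPM in DKO, against 17.0, 12.5 and 11.9 CPM in Gadd45a-KO (log2 fold change -1.12 ± 0.21, adjusted p = 0.0366). Both groups of values were apart in each receptor. Ptgs1, the constitutive cyclooxygenase, was the other called member of the 20 tested prostaglandin genes, at 19.1, 22.2 and 19.7 CPM in DKO and 25.9, 24.4 and 25.3 CPM in Gadd45a-KO (log2 fold change -0.31 ± 0.06, adjusted p = 0.035). Ntn1, the axon guidance protein netrin-1, had 36.4, 32.9 and 48.8 CPM in DKO, against 71.7, 63.7 and 65.7 CPM in Gadd45a-KO (log2 fold change -0.77 ± 0.14, adjusted p = 0.0363). Spon1, a secreted adhesion protein of the floor plate, had 12.7, 10.8 and 14.4 CPM in DKO, against 22.9, 29.8 and 33.1 CPM in Gadd45a-KO (log2 fold change -1.18 ± 0.23, adjusted p = 0.046). Syt13, a synaptotagmin, fell by 0.97 (log2; adjusted p = 0.0106) and Shank2, a scaffold of synapses, by 0.82 (adjusted p = 0.0104). Nod1, a sensor of bacterial cell walls, fell by 0.72 (adjusted p = 0.028) and Cyp26b1, which degrades retinoic acid, by 0.89 (adjusted p = 0.049). In Syt13, Ntn1 and Cyp26b1 DKO replicate 3 was the highest of its group and so the nearest to Gadd45a-KO.

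Patterning factors contributed few calls. Zic1, a zinc finger factor of neural and mesodermal development, had 10.3, 7.09 and 11.8 CPM in DKO, against 17.7, 17.8 and 18.0 CPM in Gadd45a-KO (log2 fold change -0.88 ± 0.18, adjusted p = 0.0472). Hoxd3, given above, was the 1 call among 33 Hox genes. Grem1, a secreted antagonist of bone morphogenetic proteins, was abundant and fell, with 274, 281 and 256 CPM in DKO, against 466, 363 and 424 CPM in Gadd45a-KO (log2 fold change -0.63 ± 0.10, adjusted p = 0.0211); it was the 1 call among 34 tested genes of TGF-beta and BMP signalling. Ccl7, the neighbour and close relative of Ccl2, fell with it by 0.45 (adjusted p = 0.0116), and none of the other 21 tested chemokines passed. The matrix proteases Adamts1 and Adamts2 fell by 0.43 and 0.34 (adjusted p = 0.039 and 0.0143). Ddit4, an inhibitor of mTOR signalling that glucocorticoids and stress induce, had 119, 122 and 144 CPM in DKO, against 177, 171 and 178 CPM in Gadd45a-KO (log2 fold change -0.45 ± 0.08, adjusted p = 0.0239). The glutathione transferases Gstm2 and Gsta4 fell by 0.66 and 0.79 (adjusted p = 0.0239 and 0.039), though these families have similar copies that unique counting can leave out.

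The genes of the fat cell showed the largest differences in level, with low values in every DKO library. They spread widely in Ing1-KO and, by less, in WT, whose libraries enter the shared fit, but not so in Gadd45a-KO. None of the 29 tested members of the adipocyte identity and lipid droplet list passed in the fit of all 12 libraries. Log2 fold changes were negative in all 29 and had a median of -2.78, against a median of -0.0025 over all genes tested, of which 50.8% were negative. For 27 of the 29 the 3 DKO values lay below the 3 Gadd45a-KO values. When only the 6 libraries compared were fitted, 24 of the 29 passed, all lower, and DESeq2 with all 12 libraries called 21. Leaving out Ing1-KO replicate 1 or 3 gave 19 and 16, beside 501 of 16361 and 590 of 16383 over all genes tested. The mean log2 CPM of the list in the 3 Ing1-KO libraries was 5.26, 3.8 and 2.08. In DKO it was 1.35, 1.25 and 1.74, in Gadd45a-KO 4.22, 4.18 and 3.8, and in WT 5.41, 4.34 and 5.35. At an unadjusted p under 0.05 there were 23, and limma-voom called 1. The median log2 fold change lay between -3.21 and -2.48 in all fits tried but the one that takes the mean of this same list as covariate, where it was -0.25.

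Cidec, a protein of lipid droplet fusion, had 6.38, 5.34 and 7.57 CPM in DKO, against 110, 140 and 86.3 CPM in Gadd45a-KO (log2 fold change -4.12 ± 0.86, adjusted p = 0.0515). Plin1, the perilipin that coats the droplet, had 1.69, 1.68 and 2.64 CPM in DKO, against 26.9, 34.2 and 20.9 CPM in Gadd45a-KO (-3.76 ± 0.86, adjusted p = 0.0631). Adipoq, which encodes the hormone adiponectin, had 3.12, 3.11 and 5.73 CPM in DKO, against 53.1, 63.2 and 43.0 CPM in Gadd45a-KO (-3.73 ± 0.86, adjusted p = 0.0636). The DKO means of these 3 genes were 0.0574, 0.0733 and 0.0751 of the Gadd45a-KO means, yet each missed the threshold. Fabp4, the fatty acid carrier of fat cells, had 68.7, 68.6 and 78.9 CPM in DKO, against 525, 539 and 394 CPM in Gadd45a-KO (-2.75 ± 0.69, adjusted p = 0.0746). Lpl, lipoprotein lipase, had 156, 151 and 244 CPM in DKO, against 560, 535 and 445 CPM in Gadd45a-KO (-1.49 ± 0.53, adjusted p = 0.157). Lep, which encodes leptin, had 3 reads in all in DKO, at the floor of 3, and 123 in Gadd45a-KO. Slc2a4, the insulin-regulated glucose transporter, had 0.868, 0.817 and 0.969 CPM in DKO and 2.90, 2.25 and 2.04 CPM in Gadd45a-KO (-1.44, adjusted p = 0.303).

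Of the factors upstream of these genes, Pparg differed by more than Lpl and Slc2a4, and Cebpa and Cebpb by less. Pparg had 1.74, 1.94 and 2.47 CPM in DKO, against 10.2, 9.0 and 8.06 CPM in Gadd45a-KO (log2 fold change -2.14 ± 0.64, adjusted p = 0.11). Cebpa had 21.9, 21.6 and 22.3 CPM in DKO, against 26.9, 30.7 and 27.5 CPM in Gadd45a-KO (-0.37 ± 0.33, adjusted p = 0.588). Cebpb, which acts first, fell slightly but evenly and passed: 13.6, 12.9 and 13.7 CPM in DKO, against 16.0, 16.1 and 15.8 CPM in Gadd45a-KO (-0.25 ± 0.05, adjusted p = 0.0363). It was the 1 call among 32 tested pro- and anti-adipogenic factors, of which 24 were negative with a median of -0.11. Cebpd (-0.26, adjusted p = 0.224) and the preadipocyte marker Dlk1 (0.02, adjusted p = 0.983) did not pass.

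**Figure D3:**
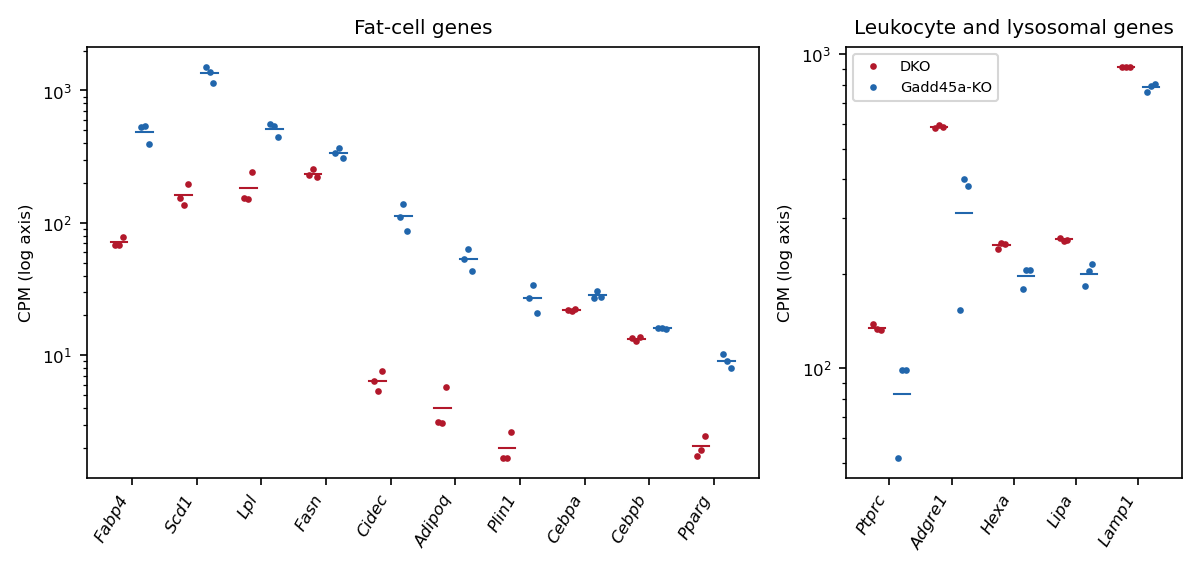
CPM on a log axis of fat-cell genes (left) and of leukocyte and lysosomal genes (right); points are libraries, lines are means, DKO in red and Gadd45a-KO in blue. Fat-cell genes lie below in DKO, by the most in Cidec, Plin1 and Adipoq and by the least in Cebpb and Cebpa; in Ptprc, Adgre1, Hexa, Lipa and Lamp1 the lowest point is Gadd45a-KO replicate 1.

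Scd2, a fatty acid desaturase, passed, with 752, 710 and 771 CPM in DKO, against 979, 1073 and 1025 CPM in Gadd45a-KO (log2 fold change -0.46 ± 0.09, adjusted p = 0.0426), and it was the 1 call among 26 tested genes of fatty acid synthesis, 22 of them negative. Its relative Scd1 had 155, 136 and 198 CPM in DKO, against 1515, 1387 and 1145 CPM in Gadd45a-KO and did not pass (-3.05 ± 0.65, adjusted p = 0.0543), nor did Fasn, the fatty acid synthase (-0.52, adjusted p = 0.168). All 25 tested genes of cholesterol synthesis and uptake were negative, with a median of -0.26. In the fit of all 12 libraries edgeR called 1 of them; fitting only the 6 libraries called 12 of the 25, all lower. In the lists of triglyceride synthesis and lipolysis (19 tested, median -0.49) and fatty acid oxidation (28 tested, median -0.30) edgeR called 0, with 12 and 8 at an unadjusted p under 0.05; fitting only the 6 libraries called 12 and 8, all lower, and DESeq2 8 and 3.

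Lysosomal genes lay in the other direction. Log2 fold changes were positive in 28 of 32 tested members (median 0.26), and 6 passed, all higher, among them Hexa, Lipa, Lamp1 and Tpp1. Hgsnat, described above as lower in DKO, is a lysosomal enzyme that the list does not hold. Hexa, which encodes a subunit of an enzyme that breaks down gangliosides, had 240, 250 and 249 CPM in DKO, against 179, 206 and 205 CPM in Gadd45a-KO (0.32 ± 0.05, adjusted p = 0.0235). Lipa, the acid lipase of lysosomal cholesterol ester breakdown, had 260, 255 and 256 CPM in DKO, against 182, 203 and 214 CPM in Gadd45a-KO (0.36 ± 0.06, adjusted p = 0.0239). Lamp1, a main glycoprotein of the lysosomal membrane, had 912, 908 and 913 CPM in DKO, against 757, 794 and 804 CPM in Gadd45a-KO (0.22 ± 0.04, adjusted p = 0.0239). These were small, even shifts: the DKO libraries differed little among themselves, and in each gene the lowest library was Gadd45a-KO replicate 1. Tpp1, a lysosomal peptidase, rose by 0.19 (adjusted p = 0.0446).

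The number of lysosomal calls moved with the libraries and the model. It was 10 without Gadd45a-KO replicate 1, where 379 of 16373 genes were called in all. It was 0 without DKO replicate 1 or DKO replicate 2, and 2 when only the 6 libraries were fitted. DESeq2 called 16 of the 32, all higher. Macrophage and leukocyte markers lay in the same direction as the lysosomal genes, but Cd68 and Laptm5 are members of both lists. All 30 tested markers of that list were positive, with a median of 0.77, and 27 did not overlap, but edgeR called 0, with 24 at an unadjusted p under 0.05. Without Gadd45a-KO replicate 1, 15 of the 30 were called higher with a median of 0.46, beside 285 of 16373 over all genes tested. DESeq2 with all 12 libraries also called 15. Ptprc, the pan-leukocyte antigen CD45, had 138, 133 and 132 CPM in DKO, against 51.7, 98.4 and 98.9 CPM in Gadd45a-KO (0.70 ± 0.20, adjusted p = 0.102). Adgre1, the macrophage antigen F4/80, had 583, 594 and 585 CPM in DKO, against 153, 401 and 379 CPM in Gadd45a-KO (0.92 ± 0.28, adjusted p = 0.12). With the mean of the leukocyte list as covariate, a fit added after the data had been seen, 3 genes were called higher and 6 lower in all, 4 of the 203 calls remained and the lysosomal median was 0.05 with 0 called. That covariate may itself be an outcome of the genotype, and it includes Cd68 and Laptm5, which are also on the lysosomal list. With the mean of the adipocyte list as covariate 46 were called higher and 32 lower, of which 10 were among the 203.

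The Lamp1 promoter is shown because many lysosomal genes carry the motif GTCACGTG near their start, which the factor TFEB binds and which contains the E-box CACGTG. From RefSeq, on GRCm38.p6, the window of 250 bases before to 50 after the start of transcription is chr8:13158911-13159210 on the plus strand. Capitals mark the motif in the window of Lamp1.
Lamp1: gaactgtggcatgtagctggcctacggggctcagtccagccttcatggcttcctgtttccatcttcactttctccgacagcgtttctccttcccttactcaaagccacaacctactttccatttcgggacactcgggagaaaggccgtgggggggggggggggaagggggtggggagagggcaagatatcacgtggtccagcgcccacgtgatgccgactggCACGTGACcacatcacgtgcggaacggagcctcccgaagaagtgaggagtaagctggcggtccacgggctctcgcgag
The motif, searched on both strands as GTCACGTG or CACGTGAC, began at base 223 of this window. Windows were at hand for 4 of the 6 called lysosomal genes (Hexa, Lamp1, Lipa and Tpp1), and Lamp1 was the 1 that held it. A gene was counted if any of its windows held the motif. Of the lysosomal list 5 of 25 genes with a window held it (20%), against 507 of 11486 tested genes (4.41%). It was held by 5 of 79 of the genes called higher (6.33%) and 1 of 63 of those called lower (1.59%).

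Contractile genes of smooth muscle were all positive, 24 of 24 tested with a median of 0.30, and edgeR called 0. By edgeR 12 had an unadjusted p under 0.05, and DESeq2 called 6. For 7 of the 24 the DKO values lay wholly above, beside 12.4% of all genes tested. The mean log2 CPM of the list was 8.298, 8.433 and 7.875 in DKO, against 7.895, 7.836 and 7.83 in Gadd45a-KO. DKO replicate 3 thus lay within the Gadd45a-KO range. Of 36 tested genes of DNA replication and mitosis edgeR, DESeq2 and limma-voom each called 0, and 1 had an unadjusted p under 0.05 in edgeR; the log2 fold changes lay between -0.11 and 0.13, with a median of 0.04. The cell cycle inhibitors Cdkn1a and Cdkn2a had log2 fold changes of 0.01 ± 0.07 and -0.08 ± 0.07. Among 22 tested imprinted genes edgeR called 0, with 1 higher and 2 lower at an unadjusted p under 0.05, and DESeq2 called 1 higher and 1 lower; Igf2, a fetal growth factor, had 0.56 ± 0.27 on the log2 scale (adjusted p = 0.282) and Mest, a hydrolase linked to fat-cell size, had 0.70 ± 0.19 (adjusted p = 0.094). The same held by edgeR for 27 interferon-stimulated genes (2 at an unadjusted p under 0.05, DESeq2 2), 31 Wnt pathway genes (6, DESeq2 2), 26 collagens and related matrix genes (9, DESeq2 4) and 17 genes of DNA methylation and demethylation (1, DESeq2 0). The endothelial list was scarce, with a median over its genes of 1.24 CPM, and 5 of its 8 tested members were positive. Its median log2 fold change was 0.37, with 4 higher and 1 lower at an unadjusted p under 0.05 by edgeR. The 1 call among the 8 went against that direction and was Egfl7, a secreted angiogenesis factor. It had 1.15, 1.21 and 1.34 CPM in DKO, against 2.32, 2.47 and 2.14 CPM in Gadd45a-KO (log2 fold change -0.90 ± 0.19, adjusted p = 0.0472); it overlaps Agpat2, a gene of triglyceride synthesis, on the other strand. The reads do not carry a strand mark that the sources state, so named genes cannot be told apart from a partner on the other strand; this applies to Col10a1, Car9, Plxna4, Zic1, Hoxd3, Hexa, Lamp1, Adamts2, Cebpb, Egfl7, Mab21l2, Scx and Mcf2l among the calls named here.

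The same loss on the background labelled wild type for Gadd45a gave 699 calls for Ing1-KO against WT (4.32%). The 2 comparisons share no library. Of the 203 calls in DKO, 79 were also called in Ing1-KO, which is 38.9% of the 203 and 11.3% of the 699, and 76 of the 79 had the same sign, 35 higher and 41 lower. Leaving out 1 library gave 6 to 198 genes called in both and 101 to 1203 called in Ing1-KO; with the replicate block 42 were called in both and with DESeq2 263. Over all 203 the sign was the same for 180 (88.7%), compared with 58.2% of all genes tested. Across the 202 calls without Ing1 the log2 fold changes correlated with Pearson's r of 0.82. Those calls include Sycp1, Car4 and Slc22a3, whose large fold changes rest on few reads, and r without them was not computed. Across all genes r was 0.42 and Spearman's rank correlation 0.26. Genes are not independent replicates, the calls were chosen for being large in 1 of the comparisons, and all libraries were fitted together.

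Car9 and Mab21l2 were among the genes that rose in both. Car9 had 57.9, 49.2 and 44.2 CPM in Ing1-KO, against 16.5, 13.4 and 18.1 CPM in WT, and Mab21l2 had 7.56, 6.43 and 7.94 CPM in Ing1-KO, against 0.985, 1.37 and 1.89 CPM in WT. Col10a1 rose by 2.27 in Ing1-KO against WT, beside 2.38 in DKO against Gadd45a-KO. Spaca1, an acrosome membrane protein of sperm, rose by 1.06 in DKO and 1.42 in Ing1-KO. Scx, the tendon transcription factor scleraxis, rose by 1.18 and 1.82, and Rab27b, a GTPase of secretion, by 0.97 and 1.04, in the same order. Sycp1, a protein of the meiotic synaptonemal complex, was near absent in Gadd45a-KO, with 0, 3 and 3 reads, and had 151, 124 and 84 reads in DKO. In Ing1-KO it stood at 3.91, 3.73 and 3.90 CPM, against 0, 0.0217 and 1.39 CPM in WT, so WT replicate 3 stood apart from the other 2.

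Falls shared by both comparisons included Shank2, Cnr1, Ptger3, Cyp26b1 and Hgsnat, given above, and 3 scarce genes. Gprin1, a neurite outgrowth protein, had 0.563, 0.662 and 0.639 CPM in DKO, against 2.01, 1.40 and 1.57 CPM in Gadd45a-KO (-1.42 ± 0.19, adjusted p = 0.0106), and fell by 0.92 in Ing1-KO. Car4, a membrane carbonic anhydrase, had 1, 1 and 1 reads in DKO, against 41, 108 and 56 in Gadd45a-KO (adjusted p = 0.0363). Slc22a3, an organic cation transporter, had 2, 0 and 5 reads in DKO, against 51, 84 and 57 in Gadd45a-KO (adjusted p = 0.0327). Reads so few do not fix the size of a fold change, and no fold is given for Car4, Slc22a3, Lep and Sycp1. In Ing1-KO Car4 was at 1.08, 0.209 and 0.0961 CPM, against 3.4, 1.47 and 1.83 CPM in WT; Ing1-KO replicate 1 was the highest and replicate 3 the lowest, as for the adipocyte list mean, whose part in this result was not tested.

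**Figure D4:**
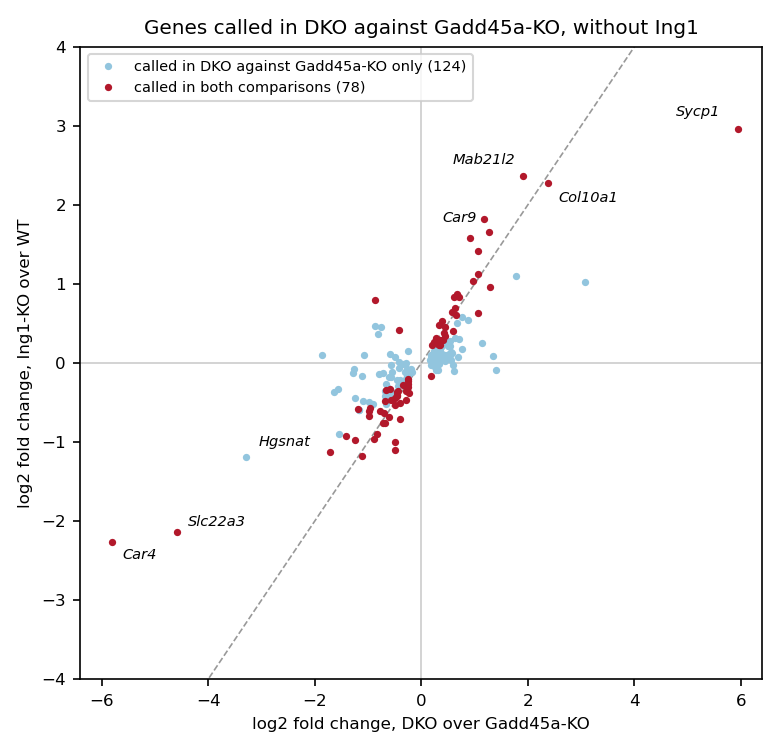
Log2 fold change in DKO over Gadd45a-KO (x axis) against that in Ing1-KO over WT (y axis) for the 202 genes called in DKO against Gadd45a-KO other than Ing1; red points were called in both comparisons (78), blue points in the first alone (124), and the dashed line marks equal change. Most points lie in the upper right and lower left, with Car9, Mab21l2 and Col10a1 near or above the line; the positions of Sycp1, Car4 and Slc22a3 rest on few reads.

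3 genes were called in both with opposite signs. Ivns1abp, an actin-binding kelch protein, was higher in DKO, at 167, 166 and 162 CPM against 144, 148 and 145 CPM in Gadd45a-KO (log2 fold change 0.18 ± 0.03), but lower in Ing1-KO, at 133, 137 and 143 CPM against 155, 153 and 155 CPM in WT (-0.16 ± 0.03). Whrn, the scaffold protein whirlin of hair cells, was lower in DKO, at 2.65, 2.89 and 2.70 CPM against 3.56, 3.55 and 3.99 CPM in Gadd45a-KO (-0.43 ± 0.09), and higher in Ing1-KO (0.42 ± 0.09). The third was ENSMUSG00000087490, which has no symbol in the annotation used and a mean under 1 CPM. They were chosen after their values were seen. The test of the difference between the 2 comparisons called none of these and no other gene by edgeR: the smallest adjusted p was 0.0692, for 0 calls (0%), and 2204 genes had an unadjusted p under 0.05. Limma-voom called 0 and DESeq2 called 173. Without Ing1-KO replicate 3 edgeR called 191, and without DKO replicate 3 it called 30. Some calls in DKO had a small value in Ing1-KO, such as Tpd52 (0.69 against 0.08), Rnf128 (0.76 against 0.18) and Nod1 (-0.72 against -0.12). Zic1 had the opposite sign there (-0.88 against 0.47). The adjusted p-values of Tpd52, Rnf128, Nod1 and Zic1 for the difference by edgeR lay between 0.14 and 0.26, so these are not shown to differ between backgrounds.

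The genes beside Ing1 were listed by their order in the reference annotation, because a targeted locus can carry flanking sequence of another strain. Of the 95 tested genes nearest to Ing1 on chromosome 8, 45 on the side of the chromosome start and 50 on the other, 4 were called (4.21%), compared with 1.25% of the rest of the chromosome and 1.23% of the other chromosomes. In Ing1-KO against WT 11 of the 95 were called (11.6%), compared with 3.75% of the rest of the chromosome and 4.3% of the other chromosomes. The 4 were Lamp1, given above, Nek3, Mcf2l and Efnb2. Nek3, a kinase of the NIMA family, had 4.20, 4.20 and 3.73 CPM in DKO, against 1.92, 2.11 and 1.72 CPM in Gadd45a-KO (log2 fold change 1.07 ± 0.20, adjusted p = 0.0363), and rose by 1.12 in Ing1-KO. Mcf2l, a guanine nucleotide exchange factor, had 4.86, 5.17 and 3.67 CPM in DKO, against 2.99, 2.74 and 3.12 CPM in Gadd45a-KO (0.63 ± 0.13, adjusted p = 0.0467), and rose by 0.70 in Ing1-KO. Efnb2, an ephrin ligand, had 85.3, 82.0 and 88.4 CPM in DKO, against 105, 104 and 98.3 CPM in Gadd45a-KO (-0.27 ± 0.05, adjusted p = 0.0363). Whether flanking sequence of the targeted locus has a part in these values was not tested.

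**Figure D5:**
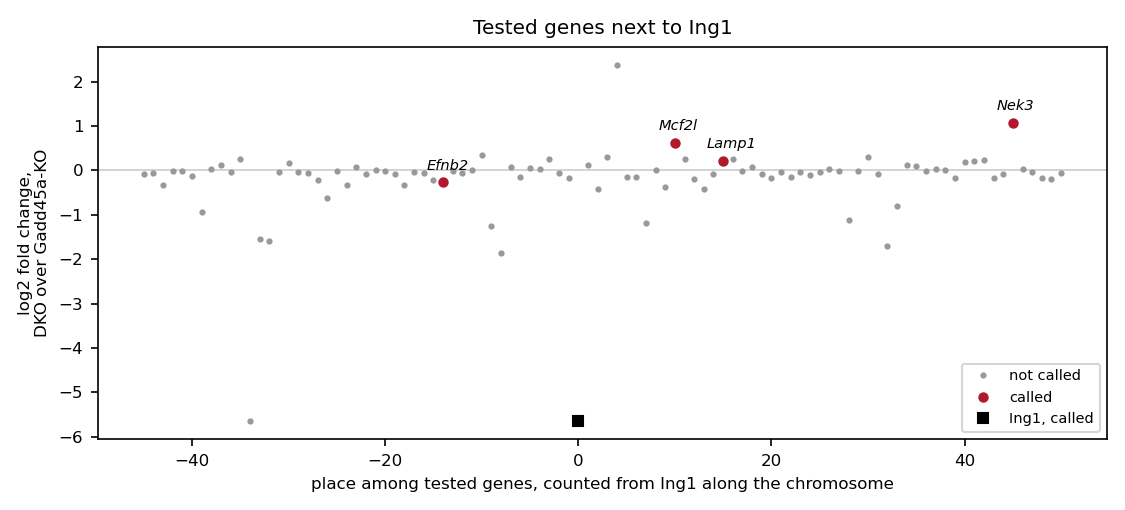
Log2 fold change in DKO over Gadd45a-KO (y axis) of the 95 tested genes nearest to Ing1, by their place counted from Ing1 along the chromosome (x axis); red points were called, grey points were not, and the black square is Ing1. Ing1 lies at -5.66, Nek3 and Mcf2l at 1.07 and 0.63, Lamp1 at 0.22 and Efnb2 at -0.27; the grey point as low as Ing1 is Retn, a scarce fat-cell gene.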

How the data were processed

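Per the labels, TruSeq v2 libraries (280 ng RNA, 12 PCR cycles) were pooled and sequenced single-end over 7 lanes, 51 cycles each. The authors deposited raw, unnormalized read counts, 1 value per Ensembl gene ID. Per the submitters' processing notes the tools were TopHat2 2.0.9 with Bowtie2 2.1.0, HTSeq 0.5.4, FastQC and DESeq, on mm9 (NCBIM37). How HTSeq treated strand and overlaps is not given in these sources. The 5 lines of each file that name no gene held 24.2% to 24.9% of a library and were left out. Symbols, gene order and overlaps came from a GENCODE annotation of another build, which matched 32919 of 37991 identifiers, so no gene coordinates are given; the promoter window is RefSeq's, on its own build.

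The test was run in R 4.3.3 with edgeR 4.0.16, using filterByExpr by genotype, TMM factors and the robust quasi-likelihood test of genotype means in 1 fit of all 12 libraries, which share 1 estimate of spread. CPM were computed here from the counts. Each SE was taken as |log2 fold change| over the root of its F statistic. Genes were called at a Benjamini-Hochberg adjusted p under 0.05. The steps were tested on simulated counts.

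The gene lists, tests and naming rule were chosen with earlier results of these data known. The rule takes the targets; the 12 called genes each way with the largest change, averaging 5 CPM or more and with no overlap between the groups, without predicted genes, RIKEN clones and pseudogenes; up to 4 called members per list; 25 chosen genes whatever their values; up to 8 genes each way called in both comparisons; and the called neighbours of Ing1. It gave 80 genes, 55 of them called. Alternatives were limma-voom (limma 3.58.1), DESeq2 1.42.0, upper-quartile or RLE factors, an unfiltered table, a minimum mean of 5 CPM, a minimum fold of 2, a replicate block, an adipocyte covariate, a fit of the 6 libraries alone and fits without each library. A leukocyte covariate and the legacy quasi-likelihood fit were added once the data had been seen. A few of the named genes are not reported here.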

Additional observations from a re-analysis of the deposited data

How the results depend on the processing

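With 107 genes called higher and 96 lower in DKO against Gadd45a-KO, RLE and upper-quartile factors, both filters, limma-voom and the legacy fit kept each count within 1.5 times, and upper-quartile factors changed the share of higher calls to 41.9%. DESeq2 called 714 higher and 539 lower, fitting only the 6 libraries called 81 higher and 343 lower, and a fold of at least 2 left 14 higher and 21 lower. The adipocyte covariate gave 46 higher and 32 lower, and the leukocyte covariate, chosen once the data had been seen, 3 higher and 6 lower; both covariates may be outcomes of the genotype. Leaving out 1 library gave 1 to 285 higher and 5 to 318 lower. For the difference of the 2 comparisons, 0 genes by edgeR, DESeq2 gave 173, no filter 1, the adipocyte covariate 4, and leaving out 1 library 0 to 191. The fold minimum removes calls by its own construction; for the others the cause was not tested. No named gene that was called changed sign in any setting; 461 single values fell short of the threshold there and 57 newly passed it. Of the named genes that were not called, 12 changed sign in at least 1 setting, without passing in it, 25 values in all. The adipocyte covariate gave log2 fold changes of 0.13 for Fabp4, 0.26 for Pparg, 0.58 for Lpl, 0.18 for Fasn, 0.038 for Cebpd, 0.99 for Slc2a4, 0.87 for Cebpa, -0.14 for Gadd45g, -0.10 for Gadd45b and -0.11 for Cdkn1a, and 14 of the 29 adipocyte genes were positive under it. The leukocyte covariate gave 0.046 for Cdkn2a, upper-quartile factors -0.0089 for Gadd45b, -0.012 for Cdkn1a and -0.0070 for Dlk1, and the minimum of 5 CPM -0.0012 for Cdkn1a. Leaving out 1 library gave values from -0.061 to 0.097 for Gadd45b, from -0.030 to 0.073 for Cdkn1a and from -0.12 to 0.28 for Dlk1.

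With the replicate block 52 genes were called higher and 43 lower, 87 of them among the 203, and 0 for the difference. Libraries with the same number did not deviate together across genes: the correlations of their deviations were 0.0512, -0.0202 and 0.0172. Not every library correlated best with its own number. Such correlations cannot show whether libraries of the same number shared an embryo or a culture, which the labels do not give.

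Depth did not differ widely between libraries, but Ing1 in DKO and genes of a few reads, such as Car4 and Lep, are set by counting error. Leaving out single libraries moved the number of calls more than any scaling tried: 6 of the 203 passed in all 12 fits without a library.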

Other observations

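Several calls outside the naming rule were read after their values were seen. Adcyap1r1, the receptor of the neuropeptide PACAP, had 1.74, 2.32 and 1.77 CPM in DKO, against 6.87, 6.81 and 4.37 CPM in Gadd45a-KO (log2 fold change -1.63 ± 0.20, adjusted p = 0.0104 by edgeR), and passed in 11 of the 12 fits without a library. Gdnf, a neurotrophic growth factor, had 1.17, 0.949 and 1.40 CPM in DKO, against 2.96, 2.35 and 2.72 CPM in Gadd45a-KO (-1.18 ± 0.16, adjusted p = 0.0106). Among the higher calls, Sdcbp, the adaptor syntenin of exosome formation, had 396, 377 and 391 CPM in DKO, against 293, 319 and 317 CPM in Gadd45a-KO (0.33 ± 0.04, adjusted p = 0.0104). Prcp, a lysosomal carboxypeptidase that was not on the lysosomal list, had 57.8, 53.5 and 53.9 CPM in DKO, against 42.7, 43.6 and 43.6 CPM in Gadd45a-KO (0.35 ± 0.04, adjusted p = 0.0104), and was also called higher in Ing1-KO against WT. In Sdcbp Gadd45a-KO replicate 1 was again the lowest library.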
